A study of Mus musculus with 8 samples.

Results

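Methylation was described at 8 genes of the pluripotency network, Pou5f1, Nanog, Sox2, Zfp42, Klf4, Esrrb, Dppa3 and Tdgf1, in lymphocytes of the mouse spleen. The genes were chosen by name, from 21755 protein-coding genes of the annotation used (GENCODE M21 on GRCm38), and each was taken as its gene body with 10 kb on each side. CpGs were kept where all 4 deposited files had 5 or more reads, which left 5074 CpGs at these loci of 18714703 in the genome. All 8 promoters could be tested, among 21082.

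Cells came from spleens of mice of the inbred strain C57BL/6J at 6 to 8 weeks of age, with several animals pooled for each sample per the study's methods. Resting B cells were labelled as CD43- B cells, and naive CD4+ T cells had been sorted as CD62L high, CD44 low and CD25 negative. The 8 samples formed 4 groups of 2, the B and the T cells of each sex, and no group carried a treatment or an engineered allele. Both samples of a group shared 1 file, and the labels do not say whether it merges both libraries or holds 1 of them. Each group thus gave 1 measurement from an unstated number of pools, a B and T cell difference was seen once in each sex, and there is no spread between pools of one kind. In whole-genome bisulfite sequencing, unmethylated cytosines are converted and read as thymine, and the methylation level of a CpG is the share of reads that stay cytosine. This reading does not separate 5-methylcytosine from 5-hydroxymethylcytosine. Unless stated otherwise, levels are given in the order female B, male B, female T, male T.

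Pluripotency, the capacity of early embryonic cells to form every tissue of the body, rests on a small set of transcription factors that bind each other's enhancers. Pou5f1 (also called Oct4), Nanog and Sox2 form its core, and Zfp42 (Rex1), Klf4 and Esrrb belong to the factors of the naive state. Dppa3 (Stella) is a maternal and germ cell factor known to protect DNA from demethylation in the early embryo, and Tdgf1 (Cripto) encodes a cell surface co-receptor for Nodal signalling. Most of these genes are silent in mature lymphocytes, and their promoters are classical examples in studies of how methylation accompanies silencing and reprogramming.

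The 250 bases before the RefSeq start are shown for Pou5f1, Nanog, Zfp42, Klf4, Esrrb and Tdgf1. The stretches are given on GRCm38.p6 and 5′ to 3′ on the strand of the gene, with each CG in capitals. They show how far the density of CpGs varied between a sparse, partly methylated start (Nanog, Tdgf1, Pou5f1, Zfp42), the unmethylated and CpG-dense start of Klf4, and the first and second start of Esrrb. They lie at chr17:35505782-35506031 (Pou5f1, plus strand), chr6:122707239-122707488 (Nanog, plus), chr8:43307010-43307259 (Zfp42, minus), chr4:55532476-55532725 (Klf4, minus), chr12:86360867-86361116 (Esrrb first start, plus), chr12:86421394-86421643 (Esrrb second start, plus) and chr9:110946159-110946408 (Tdgf1, minus).
Pou5f1: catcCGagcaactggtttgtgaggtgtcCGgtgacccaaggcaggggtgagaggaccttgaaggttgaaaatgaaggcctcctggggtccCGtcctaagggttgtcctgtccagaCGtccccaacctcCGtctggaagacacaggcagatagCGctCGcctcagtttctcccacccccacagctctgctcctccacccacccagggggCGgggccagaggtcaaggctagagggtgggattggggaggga
Nanog: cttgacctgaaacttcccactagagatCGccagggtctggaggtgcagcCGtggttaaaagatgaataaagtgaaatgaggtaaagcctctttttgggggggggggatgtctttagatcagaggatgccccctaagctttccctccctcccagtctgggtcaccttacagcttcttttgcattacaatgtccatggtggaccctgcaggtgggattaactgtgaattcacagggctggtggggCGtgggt
Zfp42: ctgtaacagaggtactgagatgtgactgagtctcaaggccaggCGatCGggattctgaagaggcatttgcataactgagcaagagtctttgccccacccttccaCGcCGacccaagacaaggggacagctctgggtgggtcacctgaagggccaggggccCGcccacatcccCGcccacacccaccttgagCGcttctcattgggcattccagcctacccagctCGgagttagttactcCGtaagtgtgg
Klf4: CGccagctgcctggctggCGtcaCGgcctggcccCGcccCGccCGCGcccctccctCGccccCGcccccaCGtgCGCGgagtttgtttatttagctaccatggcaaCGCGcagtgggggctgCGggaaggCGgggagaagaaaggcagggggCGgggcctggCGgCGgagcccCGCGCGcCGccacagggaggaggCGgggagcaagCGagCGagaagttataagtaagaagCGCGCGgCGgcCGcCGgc
Esrrb first start: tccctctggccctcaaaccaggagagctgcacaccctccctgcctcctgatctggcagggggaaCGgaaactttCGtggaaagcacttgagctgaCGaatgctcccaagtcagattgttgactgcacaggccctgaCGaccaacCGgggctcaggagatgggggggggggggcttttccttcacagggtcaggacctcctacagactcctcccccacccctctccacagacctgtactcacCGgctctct
Esrrb second start: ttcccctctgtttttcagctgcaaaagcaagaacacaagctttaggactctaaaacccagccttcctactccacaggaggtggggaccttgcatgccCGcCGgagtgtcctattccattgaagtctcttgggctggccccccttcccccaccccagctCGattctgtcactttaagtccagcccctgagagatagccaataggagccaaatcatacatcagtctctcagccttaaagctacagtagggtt
Tdgf1: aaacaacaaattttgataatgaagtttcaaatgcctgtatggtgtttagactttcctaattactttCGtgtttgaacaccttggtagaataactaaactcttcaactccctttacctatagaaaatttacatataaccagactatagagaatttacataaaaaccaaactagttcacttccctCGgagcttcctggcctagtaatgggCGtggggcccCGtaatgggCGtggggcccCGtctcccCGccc

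These stretches held 3 CG in Nanog, 7 in Tdgf1, 8 in Pou5f1, 9 in Zfp42 and 32 in Klf4. The same stretch of Sox2, which is not printed, held 27 CG. Esrrb had 6 CG before its first start and 3 before its second start. The window from 250 bases before to 50 after the start was also searched on both strands for TTTGCAT, part of the octamer that POU factors bind, and for CATTGT, the core that SOX factors bind. TTTGCAT was found in 4.09% and CATTGT in 10.1% of 19583 promoters of this size. Nanog held both side by side, TTTGCAT at -75 on its own strand and CATTGT at -67 on the other strand (acaatg as printed), counted from the start at 122707489. TTTGCAT was also found in Zfp42 at -185 and in Sox2 at -99 from its RefSeq start (opposite strand), and CATTGT in Esrrb at 33 bases after its first start and at -158 from a second Pou5f1 start (opposite strand). Neither motif contains a CG, and in Nanog the nearest measured CpGs lay at -201 and -7.

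Promoter methylation, taken over 1 kb to either side of the annotated start, ran from near 0 to above 80% among the 8 genes. Klf4 and Sox2 were unmethylated in all 4 files, Pou5f1, Nanog, Esrrb and Tdgf1 were intermediate, and Zfp42 and Dppa3 were the highest. The order of the mean level over the files was Klf4 (0.584%), Sox2 (3.67%), Tdgf1 (44.8%), Nanog (55.9%), Esrrb (57.1%), Pou5f1 (60.0%), Zfp42 (74.2%) and Dppa3 (82.0%). Nanog, Esrrb and Pou5f1 were neighbours in that order that overlapped between files. In all, 2 of the 8 genes lay under 20%, 5 at 20 to 80% and 1 at 80% or more, with a median of 56.5%. With a minimum of 10 reads for each CpG the mean of Dppa3 was 70.9% and none lay at 80% or more, and with 500 bases to either side Nanog (45.8%) fell below Tdgf1 (46.7%). At the start of the transcript with the longest coding sequence, Esrrb was at 8.95%. There 3 genes lay under 20%, 4 at 20 to 80% and 1 at 80% or more, with a median of 49.1%. Over all promoters tested, 55.9% lay under 20%, 19.8% at 20 to 80% and 24.3% at 80% or more, with a median of 14.6%. No promoter of the 8 was called different between B and T cells, where a call needed an adjusted p under 0.05 in the quasi-binomial model and a mean difference of 20 points or more. The model compares methylated with unmethylated reads between cell types, with sex as a second term. Its counting error is scaled by how far the sexes disagreed on the difference, shared across promoters, and holds no spread between pools. Of all promoters, 193 of 21082 (0.915%) were called. At an unadjusted p under 0.05 there were 2 of the 8 (Pou5f1 and Nanog), beside 14.3% of all promoters. Limma on log2 ratios called none of the 8, beside 151 of 21082 promoters.

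**Figure D1:**
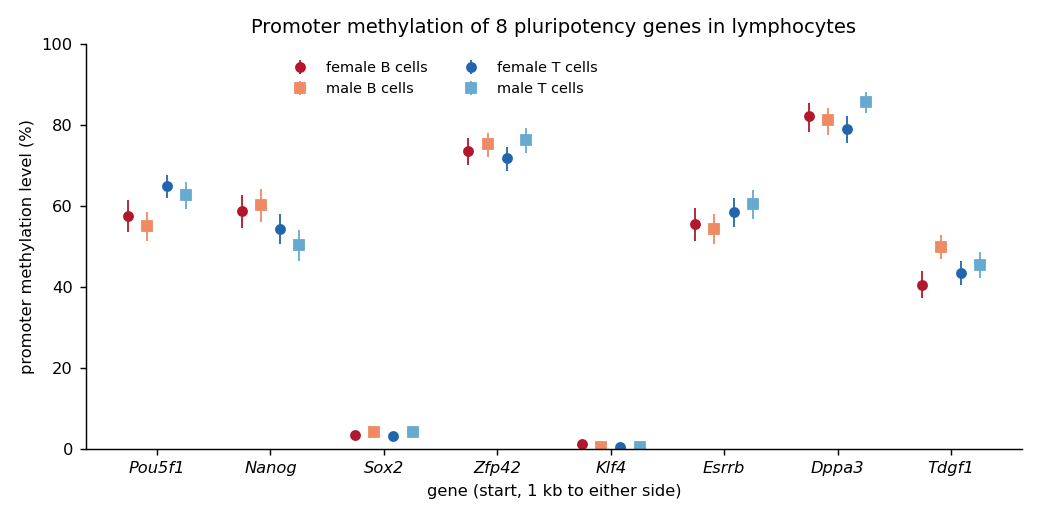
Promoter methylation level (%, 1 kb to either side of the gene start) of the 8 genes, with 1 point for each file and its 95% Wilson interval from counted reads. Klf4 and Sox2 lie near 0 in all files, Dppa3 and Zfp42 are highest, and Pou5f1 and Esrrb are lower and Nanog is higher in both B cell files than in both T cell files.

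Pou5f1 (ENSMUSG00000024406.16, chr17:35506018-35510772, plus strand), whose POU-domain protein is a central regulator of the pluripotent state, had promoter levels of 57.6, 54.9, 64.8 and 62.6% over 43 CpGs. Both B cell files were lower than both T cell files, by 7.46 points on average, with an adjusted p of 0.175 (quasi-binomial model). The 16 CpGs of the upstream kb gave 48.8, 48.1, 58.7 and 61.2%. The same CpGs were lower in B cells by 11.5 points both as a promoter side, with an adjusted p of 0.163, and as a 1 kb window (chr17:35505001-35506000, intergenic), with an adjusted p of 0.0208. The fits differed in the dispersion and in the features adjusted over, and neither gave a call. Single CpGs within this promoter were far apart: the one at -160 from the RefSeq start averaged 83.4% over the files and the one at -42 averaged 26.0%. At 10 bases after the start, the levels were 0, 0, 40 and 62.5%, from 6 to 16 reads a file, a CpG named after its values were seen.

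Nanog (ENSMUSG00000012396.12, chr6:122707489-122714633, plus strand), a homeodomain factor that stabilizes the pluripotent state, had promoter levels of 58.7, 60.1, 54.4 and 50.2% over 33 CpGs. Here both B cell files were higher than both T cell files, by 7.09 points, with an adjusted p of 0.308. The window over its start (chr6:122707001-122708000, coding sequence and UTR) had 52.4, 49.3, 42.2 and 39.4% and was higher in B cells by 10.0 points with an adjusted p of 0.0447. Fitted as a promoter of 500 bases to either side of the start, the same levels gave an adjusted p of 0.190. The lowest stretch near the start was a run of 4 CpGs at -355 to -201, at 25.3, 25, 15.7 and 17.6%. The CpGs at -201, -7 and 2 bases from the start averaged 21.5%, 68.4% and 52.8% over the files, from 6 to 18 reads each.

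Sox2 (ENSMUSG00000074637.7, chr3:34650405-34652461, plus strand), the SOX factor that binds together with Pou5f1, stood inside a wide unmethylated domain. Its promoter had 3.35, 4.09, 3.15 and 4.09% over 147 CpGs. Runs were defined as 4 or more consecutive measured CpGs that each averaged under 50%. At Sox2 a run of 296 CpGs extended for 7125 bases, from -2723 to 4400 bases from the start, at 5.51 to 6.57% in the files. All 3 upstream segments also stayed low, at 8.66 to 17.5% in every file, and 507 of the 593 CpGs of the locus averaged under 20% while 2 reached 80%. The noncoding gene Sox2ot spans the locus, and the intervals described here cannot be assigned to Sox2 alone.

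Zfp42 (ENSMUSG00000051176.6, chr8:43295063-43306980, minus strand), a zinc finger gene used as a marker of naive pluripotent cells, had promoter levels of 73.5, 75.2, 71.8 and 76.3% over 50 CpGs, with the cell types interleaved and a mean difference of 0.315 points. Within 500 bases of the start both B cell files lay above both T cell files, at 65.8, 63.8, 57.7 and 62.1%, a difference of 4.92 points with an adjusted p of 0.487. A narrow dip lay just before its start: 5 CpGs at -174 to -87 had 34.5, 30.8, 29.8 and 25%. On either side the levels were high, with the gene body at 89.8, 87.9, 88.6 and 89.1% and the segment from 1 to 3 kb upstream at 85.5 to 89.8%. Of the CpGs in the reference at this locus, 67.5% were covered in all files, the lowest share of the 8 genes.

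Klf4 (ENSMUSG00000003032.8, chr4:55527143-55532466, minus strand), a zinc finger factor of the naive network that is also used by differentiated tissues, had the least methylated promoter. Its promoter had 1.16, 0.406, 0.347 and 0.422% over 173 CpGs, and no single CpG from 250 bases before to 50 after the RefSeq start averaged above 2.78%. The low region was a run of 287 CpGs over 3877 bases, from -1543 to 2332 bases from the start. At its upstream edge, from 1 to 3 kb upstream, the levels were 39.8, 39.2, 55.4 and 44.8%, lower in B cells by 10.6 points with an adjusted p of 0.00864 (quasi-binomial model). Female B cells were lower than female T cells by 15.6 points and the male files differed by 5.54 points, and the mean did not reach 20 points. Within this edge, the step from -1500 to -1000 bases had 16.5, 19.6, 34.9 and 25.3%. The step from -2000 to -1500 bases had 48.5, 52.8, 61.2 and 49.6%, with the cell types interleaved. Beyond this edge, from 3 to 6 kb upstream, the levels were 93.8 to 96.6%.

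Esrrb (ENSMUSG00000021255.17, chr12:86361117-86521628, plus strand), an orphan nuclear receptor of the naive network, has its annotated start in a stretch at 55.4, 54.2, 58.4 and 60.4% over 42 CpGs, lower in B cells by 4.60 points with an adjusted p of 0.501. B minus T was -9.85 points within 500 bases of the start (41.2, 44.8, 53.8 and 51.7%, adjusted p 0.224) and -2.35 points where each CpG needed 10 reads. A second RefSeq start within the gene, added after the annotation was seen, was unmethylated in all files. Within 1 kb of that start, 100 CpGs had 8.73, 8.49, 9.27 and 9.34%. It lay in a run of 138 CpGs over 2675 bases at 6.63 to 7.44%. The starts of the same gene thus averaged 57.1% and 8.95% over the files, and the start of its transcript with the longest coding sequence also gave 8.95%. Pou5f1 also had a second RefSeq start, at chr17:35508807, and 33 CpGs within 1 kb of it had 40.3, 36.2, 35.6 and 33.4%. That interval overlapped low runs of the gene body, described below. Over the shorter window of the motif search, 6 CpGs at the second Pou5f1 start had 84.3, 71.6, 76.4 and 78.0%. The same window at its first RefSeq start had 49.6, 50.3, 59.9 and 66.3%.

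Dppa3 (ENSMUSG00000046323.8, chr6:122626410-122630272, plus strand) had the highest mean promoter level, with 82.1, 81.1, 79.0 and 85.8% over 41 CpGs. Its upstream kb was nearly fully methylated at 100, 92.4, 93.3 and 97.4%, and the kb after the start had 73.9, 75.9, 70.1 and 81.1%. The fall continued into the gene. A run of 21 CpGs from 993 to 1590 bases after the start, in an intron, had 22.3, 22.8, 27.2 and 38.6%. The 1 kb window over it (chr6:122627001-122628000) had 29.98, 30.2, 38.6 and 45.9%, lower in B cells by 12.2 points with an adjusted p of 6.22e-06. The whole gene body gave 55.2, 60.3, 69.1 and 65.8%, lower in B cells by 9.71 points with an adjusted p of 0.0308.

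Tdgf1 (ENSMUSG00000032494.12, chr9:110939603-110946158, minus strand) had intermediate promoter levels of 40.5, 49.8, 43.5 and 45.4% over 68 CpGs, with a mean B minus T difference of 0.701 points and an adjusted p of 0.939. The small difference depended on which CpGs were kept and how they were weighted. B minus T was 6.02 points where each CpG needed 10 reads. As unweighted means over CpGs the levels were 40.2, 51.8, 52.2 and 52.3%, with both B cell files below both T cell files. Over the same promoter, the 2 sides of the start differed in opposite directions. In the kb upstream, 33 CpGs had 36.5, 46.3, 21.7 and 25.6%, higher in B cells by 17.7 points with an adjusted p of 0.000686. In the kb downstream, 35 CpGs had 45.1, 53.5, 76.7 and 71.8%, lower in B cells by 24.9 points with an adjusted p of 0.000390. On each side, both B cell files lay apart from both T cell files. The division into sides was added after the values were seen, with the model fitted to the sides of all promoters. At 20 points, 541 of 39962 promoter sides (1.35%) were called, and of the 8 genes the downstream side of Tdgf1 was the 1 side called. Opposed sides, each with an adjusted p under 0.05 and 10 points or more, were found in 8 of 19170 promoters (0.0417%): Ccdc8, Enthd1, Gpr132, Irf4, Notch1, Tdgf1, Trim69 and Xirp1. This limit of 10 points, below the 20 points of a call, was also set after the Tdgf1 values were seen. The share is therefore no independent measure of how rare the pattern is. With limma on log2 ratios, the adjusted p values of the Tdgf1 sides were 0.267 and 0.216, and without 1 file in turn that of the downstream side was 0.0867 to 0.182. That of the upstream side was 0.0457 without the female B file and 0.249 to 0.382 without each of the others, with differences of 12.8 to 22.7 points.

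**Figure D2:**
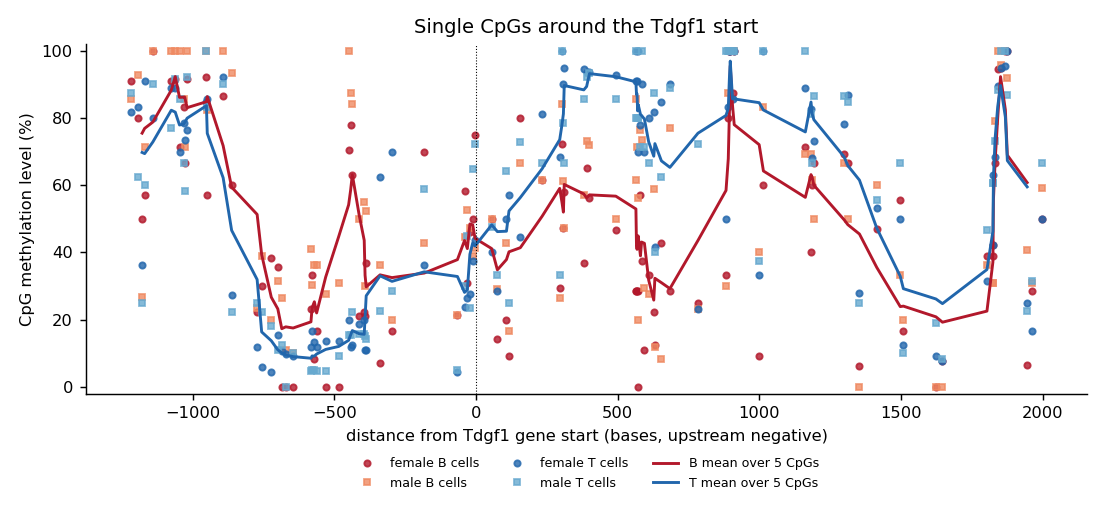
Methylation level (%) of single CpGs by distance from the Tdgf1 start (bases, upstream negative) in the 4 files, with lines for the mean of both B cell and of both T cell files over 5 neighbouring CpGs. Over much of the kb upstream of the start the T cell line runs at or below the B cell line, and from about 200 to 1000 bases downstream it runs above it.

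The Tdgf1 difference could be read at single CpGs, and 2 stretches of 200 bases that hold strongly divergent ones are shown on GRCm38, minus strand, with CG in capitals. The upstream stretch lies at chr9:110946459-110946658, from -500 to -301, and the downstream stretch at chr9:110945459-110945658, in the first intron from 500 to 699 bases after the start.
Tdgf1 upstream stretch: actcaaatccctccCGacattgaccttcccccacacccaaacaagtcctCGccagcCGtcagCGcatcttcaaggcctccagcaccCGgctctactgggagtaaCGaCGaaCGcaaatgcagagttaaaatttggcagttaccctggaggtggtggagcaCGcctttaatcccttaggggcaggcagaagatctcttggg
Tdgf1 downstream stretch: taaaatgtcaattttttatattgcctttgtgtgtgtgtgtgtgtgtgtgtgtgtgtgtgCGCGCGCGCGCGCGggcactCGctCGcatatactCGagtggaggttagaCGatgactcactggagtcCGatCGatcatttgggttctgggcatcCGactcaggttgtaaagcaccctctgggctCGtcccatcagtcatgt

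Over the 9 CpGs of the upstream stretch of Tdgf1, the levels were 36.9, 58.7, 18.0 and 16.7%. The CpG at -443 had 77.8, 87.5, 11.8 and 15.4%, and the one at -437 had 63.2, 84.2, 12.5 and 22.2%. Over the 13 measured CpGs of the downstream stretch, the levels were 27, 50, 81.8 and 74.8%, with B cells below T cells. The CpG at 570 had 0, 20, 70 and 80%, and the one at 594 had 11.1, 29.4, 70 and 71.4%. The former lies in the CG tract that directly follows a tg repeat in the printed stretch, and the latter lies outside it. An unmethylated CG in this tract reads as TG, like the repeat, and the placement of reads there was not tested. The tract also lies within the called downstream side of Tdgf1. The upstream stretch rested on 122 to 157 reads a file and the downstream stretch on 100 to 198, so that single CpGs, named after their values were seen, had few reads each. In both stretches the male B cell file was higher than the female one.

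Upstream of the promoter, where enhancers of these genes would be looked for, segments of 1 to 3, 3 to 6 and 6 to 10 kb before the start were measured, without an enhancer annotation. Of the 24 segments of the 8 genes, none was called between B and T cells, beside 985 of 63381 (1.55%) over all genes. At an unadjusted p under 0.05 there were 2, from 1 to 3 kb before Klf4 and from 6 to 10 kb before Tdgf1, beside 19.3% of all segments. The latter had 19.5, 20.7, 23.3 and 26.0%, lower in B cells by 4.52 points with an adjusted p of 0.0327, and held the unmethylated sequence of the neighbouring gene Lrrc2.

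Most upstream sequence was highly methylated, and the partly methylated stretches before Nanog and Pou5f1 were found in all 4 files. For Nanog, the segment from 3 to 6 kb had 61.3, 63.8, 66.8 and 64.6%, between segments at 91.8 to 96.7%. The 1 kb windows centred at -4988 and -3988 bases had 58.0, 56.5, 63.9 and 62.0%, and 54.5, 61.5, 62.8 and 57.8%. In the first, 4 CpGs at -5004 to -4974 had 28.6, 33.3, 36.1 and 35.6%. An enhancer at about this distance is well known for Nanog in embryonic stem cells. For Pou5f1, whose distal and proximal enhancers lie upstream of its start, the segment from 1 to 3 kb had 66.7, 62.2, 66.5 and 61.2%. The segment from 3 to 6 kb had 55.2, 59.5, 61.5 and 57.2%, and it held a run of 9 CpGs at -3951 to -3087 with 19.8, 16.0, 24.8 and 25.7%, both B cell files lying below both T cell files. Whether this run overlaps either enhancer was not examined. Zfp42, Dppa3 and Esrrb had no segment under 79%, and Tdgf1 had 84.2 to 90.4% from 1 to 6 kb.

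**Figure D3:**
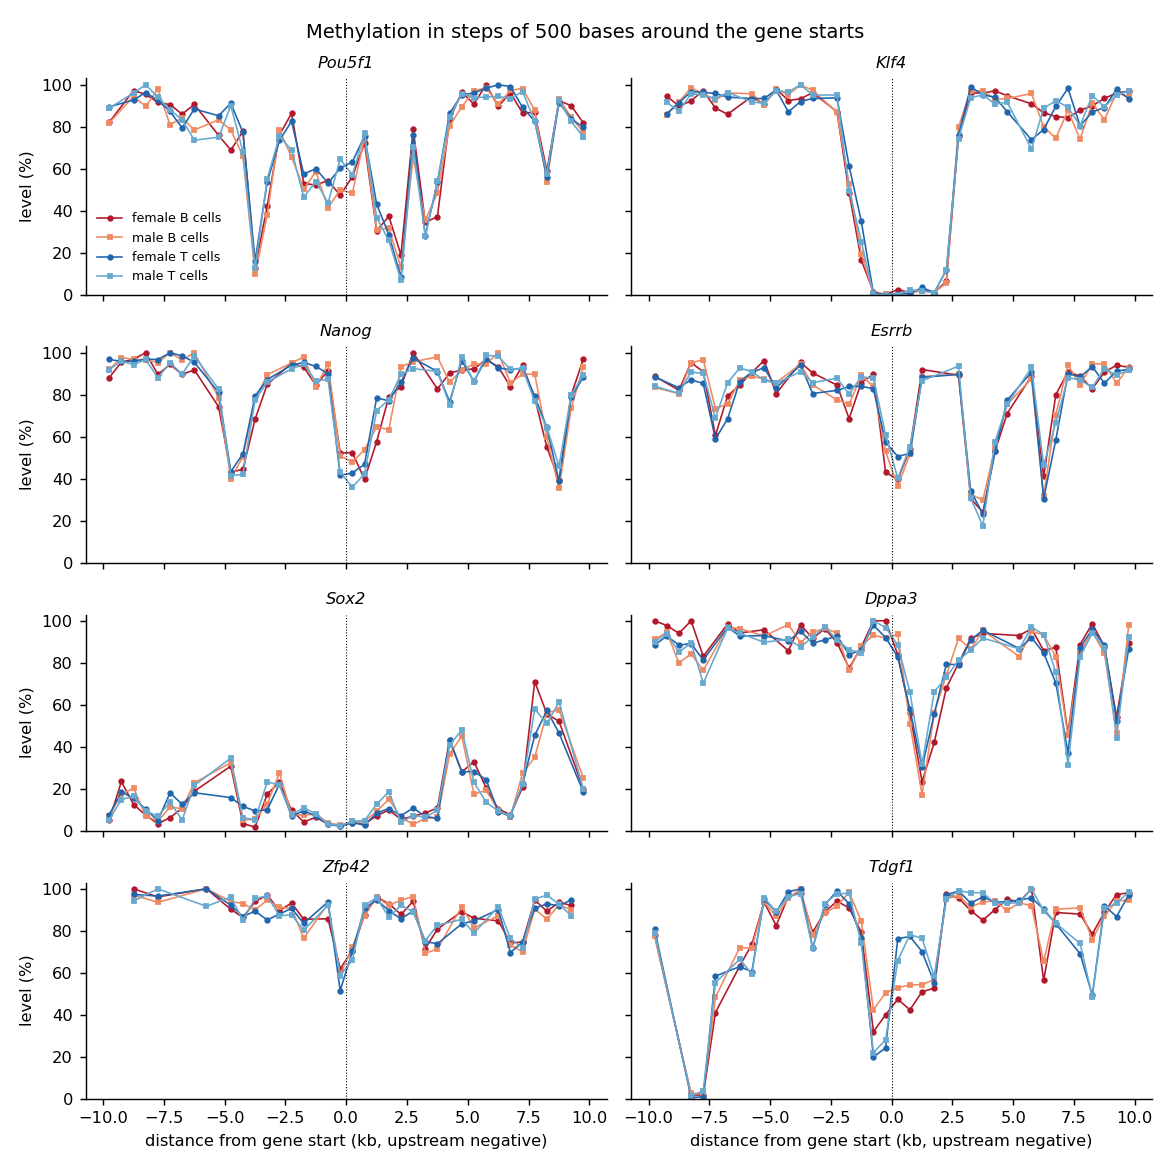
Methylation level (%) in steps of 500 bases from 10 kb upstream to 10 kb downstream of each gene start, in the 4 files, for steps with 3 or more CpGs. All 4 lines dip about 5 kb before Nanog and between 3 and 4 kb before Pou5f1. In the Pou5f1 dip the B cell lines lie below the T cell lines in the step nearer the start, and the lines cross at the start of Tdgf1.

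Gene bodies, taken from 1 kb after the start to the gene end, were called for none of the 8 genes, beside 122 of 20509 (0.595%). At an unadjusted p under 0.05 there were 2, Dppa3 (above) and Tdgf1, whose body had 79.1, 79.8, 83.7 and 84.3% with an adjusted p of 0.0617. Of all bodies, 30.6% passed that limit. The body of Pou5f1 had 45.1, 41.1, 46.9 and 42.1%. It held a run of 13 CpGs from 1744 to 2498 bases after the start with 21.8, 11.9, 7.39 and 6.85%, and a run of 8 CpGs from 3379 to 3756 bases with 7.02, 9.23, 12.4 and 8.29%. The second run overlaps Gm19553, an antisense gene. The body of Nanog had 85.2 to 86.7%, that of Esrrb 75.4 to 77.5%, that of Klf4 20.5 to 25.02% and that of Sox2 7.88 to 14.2%.

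**Figure D4:**
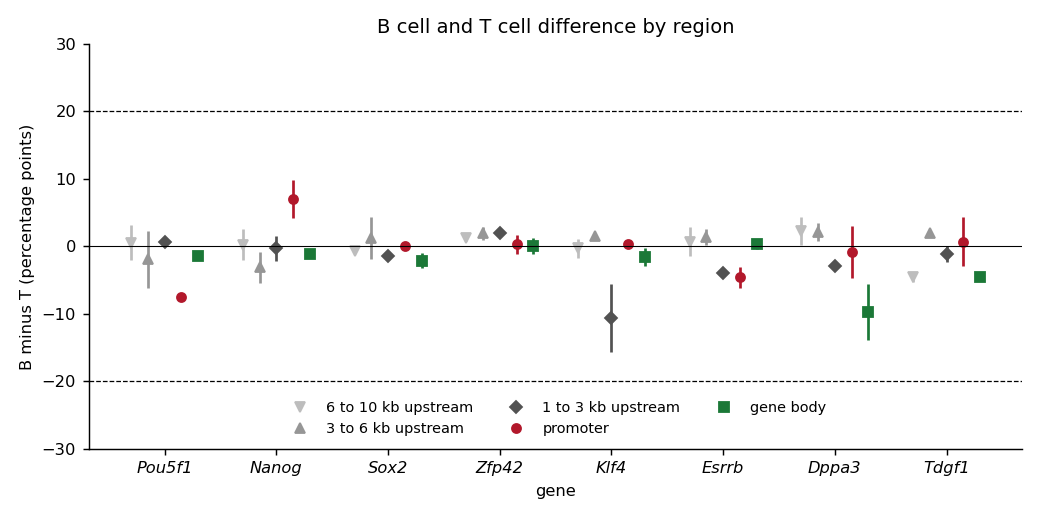
Mean B minus T difference (percentage points) of the promoter, the 3 upstream segments and the gene body of each gene, with a line from the female to the male difference; dashed lines mark the 20 points needed for a call. All points lie between the dashed lines, the lowest being the segment from 1 to 3 kb before Klf4 and the body of Dppa3.

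At a finer grain, the loci held 358 windows of 1 kb, of which 2 (0.559%) were called between B and T cells, beside 41928 of 2018320 windows (2.08%) in the genome. Both called windows lay at Tdgf1, in opposite directions. The window at chr9:110945001-110946000, covering the first exon and intron, had 47.5, 57.0, 83.2 and 78.8% over 31 CpGs, lower in B cells by 28.7 points with an adjusted p of 5.22e-22. It overlaps the called downstream side of Tdgf1 and is not a separate result. It also holds the CG tract described above, where the placement of reads was not tested. The window at chr9:110938001-110939000, intergenic and just beyond the gene end, had 85.2, 84.2, 63.1 and 62.2% over 6 CpGs, higher in B cells by 22.1 points with an adjusted p of 7.63e-05. Both B cell files lay apart from both T cell files in each window. With limma on log2 ratios, neither was called (adjusted p 0.132 and 0.166). The dispersion of windows was squeezed to a common value, so very small p values overstate what is known of the spread at one window.

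A further 13 windows had an adjusted p under 0.05 but differed by less than 20 points, 9 of them lower and 4 higher in B cells. They were 3.63% of the windows at the loci, beside 65749 (3.26%) in the genome. At Tdgf1 these included the window across the start (chr9:110946001-110947000), with 31.7, 40.0, 19.8 and 24.8%, and an intergenic window downstream (chr9:110931001-110932000), with 75.4, 73.1, 92.9 and 90.7%. In windows of 500 bases, 9 of 617 at the 8 loci (1.46%) were called, beside 73162 of 2665470 (2.74%) in the genome, with 6 of the 9 at Tdgf1 and 3 at Esrrb. They included chr9:110929501-110930000, with 87.8, 84.6, 53.6 and 56.2%, and chr9:110940001-110940500, with 48.6, 48.6, 86.8 and 84.8%. Another, chr9:110945501-110946000, lies within the called 1 kb window over the first exon and intron of Tdgf1 and holds the CG tract.

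The Esrrb differences lay deep in the gene, in windows centred 119 kb or more after its first start. Its intronic windows at chr12:86483001-86484000 and chr12:86484001-86485000 had 42.1, 52.5, 69.1 and 64.3%, and 44.7, 57.2, 69.1 and 71.4%. They were lower in B cells by 19.4 and 19.3 points, with adjusted p values of 3.14e-06 and 2.71e-06, just short of a call. B minus T was -27.0 points for the female and -11.8 for the male files in the first, and -24.5 and -14.2 points in the second. In 500-base windows the same stretch was called, chr12:86483501-86484000 having 38.5, 45.0, 72.8 and 70.6%. Within 10 points were 343 of the 358 windows, and the median absolute difference was 2.00 points.

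**Figure D5:**
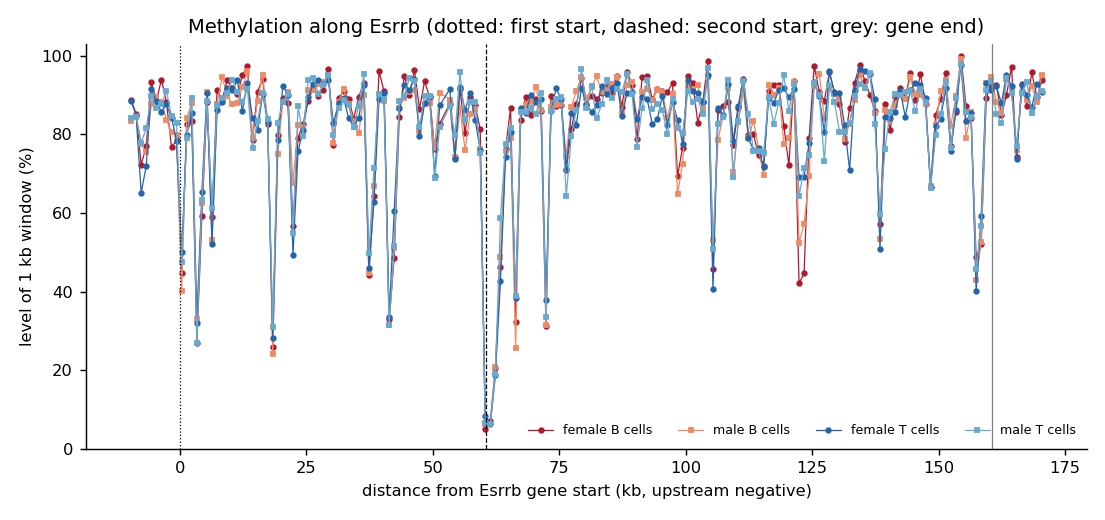
Methylation level (%) of 1 kb windows along Esrrb by distance from its first start (kb, upstream negative) in the 4 files. The windows after the second start (dashed line) are the lowest in all files, and the B cell files fall below the T cell files in windows between 119 and 124 kb.

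Sequence composition placed the 8 promoters in different company. The ratio of observed to expected CpG over the 2 kb promoter was 0.864 for Klf4, 0.817 for Sox2, 0.642 for Tdgf1 and 0.507 for Zfp42. It was 0.416 for Dppa3, 0.314 for Nanog, 0.302 for Esrrb and 0.259 for Pou5f1. Among the 10290 promoters with a ratio over 0.5, the median level was 4.81%, with 4.95% of them at 20 to 80% and 0.739% at 80% or more. Tdgf1 and Zfp42, at 44.8 and 74.2%, thus lay among the few promoters of that class above 20%, whereas Klf4 and Sox2 were below its median. Zfp42 lay just above the bound of the class. The GC content was 47.2% for Tdgf1 and 44.4% for Zfp42, beside 64.5% for Klf4 and 64.7% for Sox2. Among the 4893 promoters with a ratio of 0.25 to 0.5, the median was 26.8% and 35.5% lay at 20 to 80%, as did Pou5f1, Nanog and Esrrb, while Dppa3 lay higher.

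For each gene, the promoter of another gene with the nearest set of 4 levels was sought. The nearest was Stab1 for Pou5f1, with no file more than 1.36 points away, Sbk3 for Nanog (1.47 points), Ccdc89 for Esrrb (1.23 points), Trex1 for Tdgf1 (1.94 points), Serpinb3d for Zfp42 (1.37 points) and Defb18 for Dppa3 (1.22 points). Those of Sox2 and Klf4 were Med19 (0.0734 points) and Fam69a (0.118 points). Serpinb3d and Defb18 had 4 and 3 measured CpGs, so their likeness to Zfp42 and Dppa3 rests on few sites. Within 5 points in all files lay 7176 promoters for Sox2 and 5244 for Klf4, but 12 for Nanog, 17 for Tdgf1, 36 for Pou5f1, 51 for Esrrb, 158 for Zfp42 and 326 for Dppa3.

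A wider list of 30 genes of the pluripotency network had a median promoter level of 22.4%, with 15 genes under 20%, 6 at 20 to 80% and 9 at 80% or more. None was called between B and T cells, and the differences ran from -4.30 to 2.97 points. The lowest were Myc (0.171%), a proliferation factor also used by lymphocytes, Stat3 (0.494%), a cytokine signal transducer, and Klf2 (1.21%), a Krüppel-like factor. The highest were Dppa5a (95.9%), Tcl1 (93.4%) and Dppa2 (93.3%), all expressed in early embryos or germ cells. Between the sexes, Nr0b1 was the 1 gene called, an X-linked gene at 44.7, 14.3, 39.0 and 16.6%. Of all X-linked promoters, 414 of 827 (50.1%) were called between the sexes. For comparison, 12 of 14 germ cell genes lay at 80% or more (median 95.1%), and all 10 broadly expressed genes lay under 20% (median 4.77%), with none called between the cell types in either list and the X-linked Hprt, of the latter list, called between the sexes.

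Between the sexes, no promoter of the 8 was called, nor was any of 20255 autosomal promoters (0%), by the quasi-binomial model or by limma. At an unadjusted p under 0.05 there was 1 of the 8, Tdgf1, beside 947 autosomal promoters (4.68%). None of the 358 windows was called, beside 20 of 1950708 autosomal windows (0.00103%), and 19 (5.31%) had an unadjusted p under 0.05, beside 4.73% of autosomal windows. An adjusted p under 0.05 without a call was found for 1 of the 358 (0.279%), beside 421 autosomal windows (0.0216%). It lay over exons of Esrrb at chr12:86470001-86471000, with an adjusted p of 0.00664. It had 77.2, 70.4, 78.4 and 69.1%, higher in females by 8.09 points. No upstream segment or gene body of the 8 genes was called between the sexes. An unadjusted p under 0.05 was found for 3 of the 24 segments and for the bodies of Esrrb (0.00949) and Klf4 (0.0447). Their adjusted p values were 0.704 or more, and the shares over all genes were not taken.

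The identity of the cells and the depth bear on all of these values. Of the 8 B cell marker promoters, 6 were called and all 6 were lower in B cells, and of the 10 T cell marker promoters 6 were called and all were higher in B cells. Of the T cell markers not called, Tcf7 and Bcl11b were also higher in B cells in both sexes. Lat was at 26.4% in B and 26.7% in T cells, and Cd28 was lower in B cells, at 90.4 and 93.7%. The promoters of Cd8a and Cd8b1 were lower in T cells (69.0 and 39.5%) than in B cells (89.9% for both). The 4 myeloid and 2 NK cell markers were not called. The nearest was Lyz2, a myeloid lysozyme gene, with 41.5, 50.7, 64.1 and 66.7% and an adjusted p of 0.0436, where B minus T averaged -19.3 points. The part of these markers in the results above was not tested. Mean depth was 14.6 to 17.7 reads per autosomal CpG, and the autosomal level was 79.5 to 80.7% in the 4 files. The 95% Wilson interval of a promoter level in a single file was at most 4.16 points to either side (Esrrb), and 0.492 points for Klf4. These intervals cover counting error only.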

How the data were processed

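Whole-genome bisulfite sequencing libraries of pooled spleen lymphocytes were analysed from 4 deposited files, 1 for each combination of sex and cell type. Per the submitters' processing notes, the authors used Trim Galore, FastQC and Bismark 0.13.1 with the mm10 genome. For each CpG, the authors deposited a fraction, the methylation level, beside a read count, the coverage. Strands were merged and every entry had 5 or more reads. Part of each sample was oxidized per the labels, but these files are named as plain bisulfite libraries. PCR duplicates, if kept, widen the true error.

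Methylated reads were recovered as fraction times coverage, rounded, with fractions at most 0.000997 from that of a whole read number (100% of entries). Promoters (gene start with 1 kb to either side), upstream segments, gene bodies and 1 kb windows needed 3 CpGs with 5 or more reads in all files. Cell type and sex were terms of a quasi-binomial logistic regression of the summed reads (1 residual degree of freedom). Dispersions were squeezed by squeezeVar of limma 3.58.1 in R 4.3.3, with the prior from features with at least 5 expected reads of each kind in every file, and F tests were adjusted by Benjamini-Hochberg over all features. A call required 20 points of mean difference beside an adjusted p below 0.05. Python 3.11.15, numpy 2.4.6, pandas 2.3.3 and scipy 1.17.1 were used. On simulated data for B against T, 99.0% of 200 promoters changed by 30 points were recovered among 21082, with 0 false calls. The simulated dispersion was set below the prior value of 2.13 estimated for promoters here, and changes were placed at intermediate levels only. The simulation therefore does not measure the power or the false calls in these data.

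The members, gene lists and tests were chosen with earlier results of these data known. Named were all 8 members, all called windows at their loci, the 3 lowest, the 3 highest and any called genes of the wider network, and for each member the promoter with the nearest 4 levels. Other features were named after their values were seen. Dppa3 had no entry among the RefSeq promoter sequences. Alternatives were the coverage and CpG minimums, the threshold, the dispersion prior, promoter width and start, window size, Fisher's exact test, limma and leaving out each file. Fits without 1 file had no sex term. Their residual came from the gap between the sexes in the cell type that kept both files, so their p values are those of another model. Mean depth was 14.6 to 17.7 reads per autosomal CpG. Since each group has 1 file, no spread between pools of one kind enters the p values. Their error is counting error scaled by how far the sexes disagreed on the cell type difference, shared across features. For windows the scale was a value common to all windows.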

Additional observations from a re-analysis of the deposited data

Results flagged for a closer look

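The 1 kb window at chr6:122700001-122701000, intergenic and centred at -6988 bases from the start of Nanog, moved in opposite directions in the sexes. Its levels were 92.0, 97.8, 99.2 and 91.8% (female B, male B, female T and male T) over 7 CpGs. For the female files B minus T was -7.16 points, for the male files 6.03 points, each beyond the counting error of that difference (6.36 and 5.91 points to either side), and the difference between the sexes was not tested. It was 1 of 358 windows examined in this way, and its adjusted p for cell type was 0.991 (quasi-binomial model).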

How the results depend on the processing

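With the difference threshold at 10 points, 424 of 21082 promoters, 3143 of 63381 upstream segments and 470 of 20509 gene bodies were called. So were 84620 of 2018320 windows for cell type, 221 of 1950708 for sex and 1042 of 39962 promoter sides. At the 8 genes, 1 of 24 upstream segments, 11 of 358 windows for cell type and 2 sides were called. Windows of 500 bases gave 73162 calls, 9 at these loci. Limma called 20613 windows and 96 sides, with 0 at these loci in both. Of the 2 windows called at Tdgf1, 1 was called with the prior from all features, beside 31837 of 2018320 windows in the genome. With a minimum of 10 reads 4 windows of the 8 genes were called, beside 37390 of 1432646 windows in the genome. Without 1 file in turn, promoters called ranged from 34 to 53, sides from 49 to 249, sides of these genes from 0 to 1 and their windows from 2 to 4; the 2 Tdgf1 windows were called each time. Of the 5 promoter differences under 1 point, 4 changed sign when 1 file was left out, Klf4 being the exception: Sox2 ranged from -0.368 to 0.576, Zfp42 from -1.97 to 2.60, Dppa3 from -4.14 to 2.58 and Tdgf1 from -3.95 to 5.35 points, and Dppa3 gave 1.86 and Tdgf1 1.72 within 500 bases. Where each CpG needed 10 reads, Zfp42 gave 0.784 and Dppa3 -2.15. Without the male B and the female T file, in that order, Sox2 gave -0.264 and -0.368, Zfp42 -0.523 and -1.97 and Tdgf1 -3.95 and -0.269. No promoter of the 8 genes was called for cell type under any of 12 alternatives, or for sex under the 3 tried. No paired analysis was possible because the groups share no replicate numbers and each has 1 file. Of the 32 promoter levels of the 8 genes, 22 moved beyond their counting interval with 500 bases to either side, 10 with a minimum of 10 reads, 4 at the start of the longest coding transcript (Esrrb, to 8.95% on average) and 3 as means over CpGs. With 10 reads the Dppa3 levels became 71.9, 67.7, 65.5 and 78.4%.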
